A study of Mus musculus with 71 samples.

Results

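The cholesterol synthesis genes described here are Hmgcs1, Idi1, Fdft1, Sqle, Lss, Cyp51, Insig1, and Srebf2, chosen by name as enzymes and regulators of 1 pathway. All 8 were found among the 24475 gene identifiers of the bulk RNA-sequencing tables. The study compared the gut of Btnl2-KO (Btnl2-/-) mice, whose null allele carries a LacZ cassette in place of a working Btnl2 gene in every cell, with cohoused WT littermates, female by the study's methods and of the C57BL/6 strain. Btnl2 is a butyrophilin-like protein of the intestinal epithelium. Whole small intestine tissue gave 7 Btnl2-KO and 7 WT libraries and whole colon tissue 7 and 6, from mice whose age the labels give only as YNG. The epithelial cell (IEC) fraction, the upper layer of a density gradient and so not a pure sort, was taken at 7 weeks of age, with 2 Btnl2-KO and 3 WT duodenal libraries, 3 of each genotype from the jejunum, and 3 Btnl2-KO and 2 WT ileal ones. Intraepithelial lymphocytes that carry the γδ T cell receptor (γδ IELs), were sorted as CD45+ TCRβ- TCRγδ+ cells, at 10 weeks of age by the labels, each library from a pool of a pair of mice. They gave 3 Btnl2-KO and 4 WT duodenal libraries, 4 of each genotype from the jejunum, and 3 Btnl2-KO and 4 WT ileal ones.

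Cells make cholesterol from acetyl-CoA through mevalonate, isoprenoid diphosphates, squalene, and lanosterol. The genes of this route are switched on together by SREBP2, the product of Srebf2, a transcription factor held in the endoplasmic reticulum while sterols are plentiful and carried to the Golgi and cut free when they fall short. Small intestinal enterocytes both absorb sterols and make them, and dividing or activated lymphocytes draw on the same pathway for membrane.

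Promoter sequences, 250 bases before to 50 after the start of the gene, were found in RefSeq for 6 of the 8 genes (GRCm38.p6), with none for Sqle and Fdft1. Those of Hmgcs1 and Srebf2 are shown because they alone among the 6 held TCACCCCA, the core letters of a sterol response element, which 1.56% of all 32851 RefSeq promoters of this length held on either strand. Insig1 and Cyp51, which differed between γδ IELs of the jejunum and ileum as these did, are shown as examples without these letters. Capitals mark TCACNCCA (in 4.36% of all promoters, and in the same 2 members), CCAAT (37.4%), GGGCGG (35.7%), and CACGTG (7.15%), each searched on both strands, and TCACCCCA is 1 spelling of TCACNCCA.
Hmgcs1, chr13:119690101-119690400 (+ strand): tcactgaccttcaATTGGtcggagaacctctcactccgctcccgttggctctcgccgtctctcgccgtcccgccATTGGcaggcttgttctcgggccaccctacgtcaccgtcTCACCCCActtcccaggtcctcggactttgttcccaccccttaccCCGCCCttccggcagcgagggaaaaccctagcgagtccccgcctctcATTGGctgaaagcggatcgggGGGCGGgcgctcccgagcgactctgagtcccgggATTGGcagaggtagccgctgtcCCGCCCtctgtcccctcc
Srebf2, chr15:82147019-82147318 (+ strand): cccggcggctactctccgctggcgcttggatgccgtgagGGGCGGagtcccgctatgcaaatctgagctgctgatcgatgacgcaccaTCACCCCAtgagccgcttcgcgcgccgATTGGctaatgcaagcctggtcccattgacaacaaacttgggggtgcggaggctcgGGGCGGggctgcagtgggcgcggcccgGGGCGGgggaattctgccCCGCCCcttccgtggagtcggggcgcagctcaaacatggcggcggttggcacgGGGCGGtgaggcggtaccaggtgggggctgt
Insig1, chr5:28071162-28071461 (+ strand): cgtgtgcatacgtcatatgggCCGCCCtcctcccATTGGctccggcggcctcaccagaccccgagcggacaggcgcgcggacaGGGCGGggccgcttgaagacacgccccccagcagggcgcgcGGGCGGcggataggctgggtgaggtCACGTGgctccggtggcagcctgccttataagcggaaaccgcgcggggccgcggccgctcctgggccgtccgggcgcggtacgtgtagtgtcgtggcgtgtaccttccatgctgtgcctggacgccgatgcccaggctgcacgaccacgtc
Cyp51, chr5:4104648-4104947 (- strand): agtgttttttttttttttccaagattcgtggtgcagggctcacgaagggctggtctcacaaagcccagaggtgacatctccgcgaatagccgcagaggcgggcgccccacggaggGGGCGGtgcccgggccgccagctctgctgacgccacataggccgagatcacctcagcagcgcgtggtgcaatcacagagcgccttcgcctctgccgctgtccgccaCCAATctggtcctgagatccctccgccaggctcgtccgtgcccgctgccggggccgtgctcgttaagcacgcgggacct
CCAAT and GGGCGG were present in all 6 promoters, Idi1 and Lss included, while CACGTG was present in that of Insig1 alone. A match to these letters is a description of the window and not a binding site. Other spellings of a sterol response element were not searched, so a promoter without these letters may still hold one.

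Levels are TMM-scaled CPM (read counts relative to the size of the library), and a call required a Benjamini-Hochberg FDR below 0.05 over all genes tested in edgeR and a fold change above 1.5. Total counts were 13444958 to 30029485 per γδ IEL library, 15397757 to 38258472 per IEC library, and 13619309 to 21708721 per tissue library, and every member had at least 358 counts in each. Btnl2 was below 0.13 CPM in every Btnl2-KO γδ IEL library and at 2.47 to 9.89 CPM in WT ones. In small intestine tissue it ran from 0.675 to 2.44 CPM in Btnl2-KO and 23.9 to 103 in WT mice. Some libraries went against their labels. The jejunal IEC library labelled Btnl2-KO replicate 2 had Btnl2 at 19.5 CPM and Fabp6, an ileal gene, at 484 CPM, and the duodenal one labelled Btnl2-KO replicate 1 had 5.45 and 220.3 CPM. The IEC library labelled ileal Btnl2-KO replicate 1 had Fabp6 at 0.231 CPM and Gata4, a gene of the proximal gut, at 153 CPM. Other libraries stood apart within their group. In small intestine tissue, whose labels name no segment, Gata4 was at 95.6 CPM in Btnl2-KO replicate 1 and 82.7 in WT replicate 5, against at most 15.1 in the other 12. Jejunal γδ IEL library Btnl2-KO replicate 3 had Fabp6 at 32.6 CPM, against at most 4.44 in the other jejunal ones.

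All 8 genes were measured well above the detection limit in each of the 3 kinds of sample, which came from separate experiments and are therefore set side by side without a test. Hmgcs1, the cytosolic synthase that makes HMG-CoA, averaged 489.6 ± 181 CPM (SD, n = 27) in tissue, 238 ± 66.3 (n = 22) in γδ IELs, and 180.2 ± 40.0 (n = 16) in IECs. Srebf2 averaged 317 ± 68.5 CPM in γδ IELs, 229 ± 33.02 in tissue, and 183 ± 33.6 in IECs. Fdft1, which joins farnesyl diphosphates into squalene, averaged 168 ± 36.9, 121 ± 40.8, and 66.0 ± 16.1 CPM in the same order. Between the lowest and the highest library of a kind, levels of the 8 genes differed by 1.98- to 5.88-fold in tissue, 2.23- to 3.07-fold in γδ IELs, and 1.66- to 3.19-fold in IECs. Srebf2 had the smallest ratio in tissue and in γδ IELs, and Insig1 in IECs.

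The clearest difference was between segments in γδ IELs of WT mice. In the ileum, 6 of the 8 genes were lower than in the jejunum, and the other 2, Idi1 and Fdft1, had lower means without passing the thresholds. Of all 12643 genes tested, 1379 (10.9%) were lower in the ileum and 1369 higher, so that segment differences were common, and the members' median log2 fold change was -0.72 beside 0.0039 over all genes. Over all genes, 23.3% were called between WT jejunum and duodenum, but 2.16% between WT ileum and duodenum. The WT jejunal libraries thus stood apart from both other segments in many genes, and the reason was not tested. Bulk libraries do not separate fewer cells of a type from less RNA per cell.

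At the head of the pathway, Hmgcs1 was at 387, 279, 340.0, and 309 CPM in the 4 WT jejunal libraries and at 138, 126, 144, and 222 in the 4 ileal ones. The groups did not overlap, and the ileal level was 2.07-fold lower (log2 fold change -1.05 ± 0.18, SE, FDR = 0.00366), the largest difference among the 8. Idi1, which interconverts the isoprenoid building blocks, was at 236, 199, 223, and 217 CPM in the jejunum and 128, 119, 181, and 220.1 in the ileum. Its groups overlapped in ileal replicate 4, and the log2 fold change of -0.42 ± 0.18 did not pass (FDR = 0.0955).

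Of the squalene enzymes, Fdft1 was at 189, 157, 187, and 162 CPM in the jejunum and 133, 103, 122, and 171 in the ileum, overlapping in ileal replicate 4 alone, with a log2 fold change of -0.38 ± 0.15 that did not pass (FDR = 0.0774). Sqle, the epoxidase that acts on squalene next, was at 186, 156, 179, and 184 CPM in the jejunum and 95.5, 77.1, 99.8, and 129 in the ileum. Its groups were apart, and it was lower in the ileum (log2 fold change -0.80 ± 0.15, FDR = 0.00419). Lss, which closes the epoxide into lanosterol, was at 105, 89.5, 105, and 116 CPM against 79.3, 45.9, 64.2, and 81.6, also without overlap and with a log2 fold change of -0.60 ± 0.17 (FDR = 0.0231), close to the fold minimum. Cyp51, the demethylase of lanosterol, was at 259, 208, 276, and 289 CPM against 137, 99.6, 154, and 227. Ileal replicate 4 lay among the jejunal libraries for this gene, and the log2 fold change was -0.73 ± 0.22 (FDR = 0.0273).

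Both regulators were lower in the ileum too. Insig1, an endoplasmic reticulum protein that retains SREBP when sterols are plentiful and is itself a target of SREBP, was at 151, 94.4, 103, and 100.2 CPM in the jejunum and 58.9, 51.3, 57.2, and 77.1 in the ileum (log2 fold change -0.86 ± 0.18, FDR = 0.00611). Srebf2 was at 412, 318, 396, and 432 CPM against 297, 194, 209, and 243, also lower (log2 fold change -0.71 ± 0.16, FDR = 0.00791). Neither gene's groups overlapped. Between WT segments of γδ IELs, it was not counted how many of all genes had groups without overlap. Hmgcs1, Sqle, and Insig1 passed in each of the 14 alternatives tried. Lss fell short in 9 of them, DESeq2 among them, Cyp51 in 7 and Srebf2 with the pan-epithelial covariate described next to the markers, and all log2 fold changes kept their direction.

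**Figure D1:**
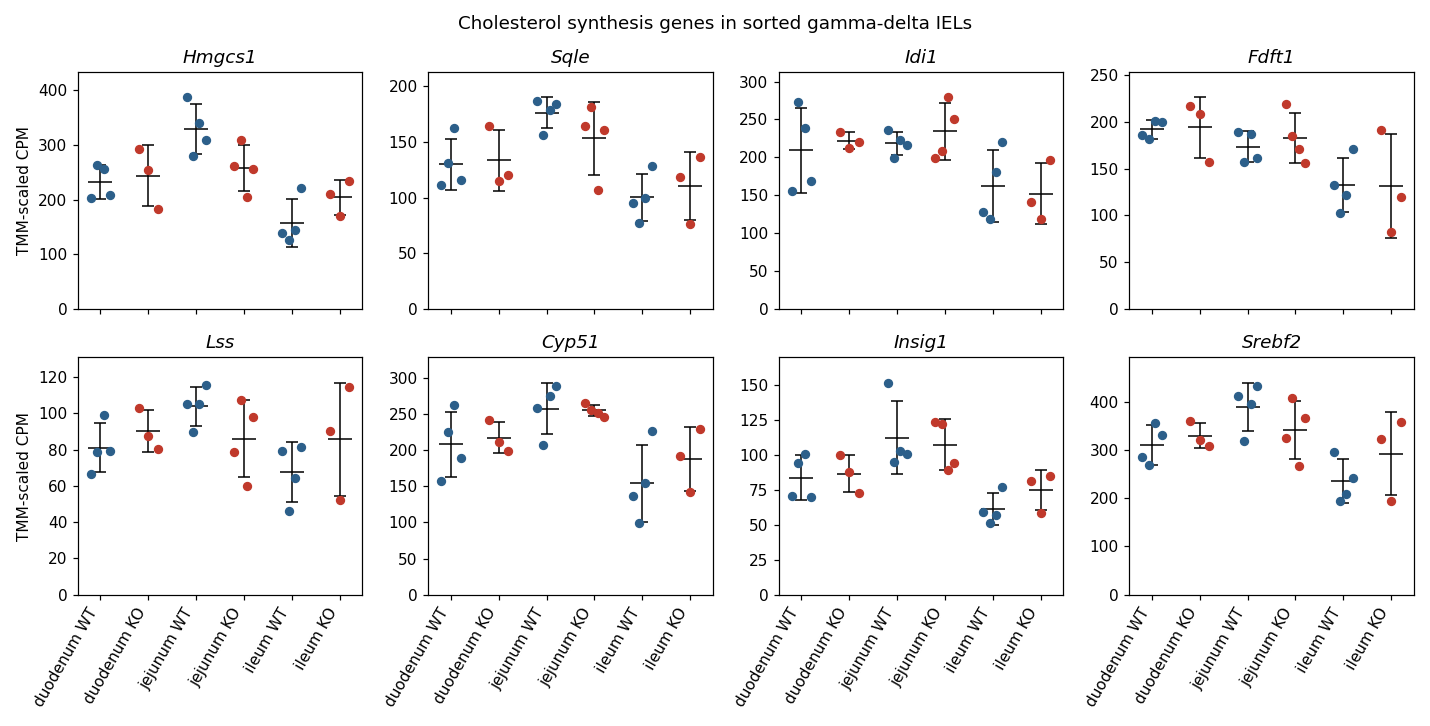
TMM-scaled CPM (linear axes from 0) of each of the 8 genes in every γδ IEL library, by segment and genotype, WT in blue and Btnl2-KO in red; the horizontal mark is the group mean and the bars 1 SD. The WT jejunal libraries lie above the WT ileal ones without overlap for Hmgcs1, Sqle, Lss, Insig1, and Srebf2, while WT and Btnl2-KO libraries of a segment overlap for all 8 genes. The number of all genes without such overlap was not counted.

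Among the other genes of sterol and fatty acid synthesis, those called were all lower in the WT ileum. Of the 15 further enzymes listed, 5 were lower in the WT ileum than in the jejunum and 0 higher (median log2 fold change -0.41), among them Dhcr7, which reduces 7-dehydrocholesterol to cholesterol (-1.05 ± 0.20, FDR = 0.00511), Lbr, a sterol reductase of the nuclear envelope (-0.84 ± 0.14, FDR = 0.00335), and Sc5d, a sterol desaturase (-0.66 ± 0.16, FDR = 0.0110). Mbtps1, a protease that cuts SREBP, was the 1 of 5 SREBP processing genes called (-0.80 ± 0.16, FDR = 0.00516). Of 9 fatty acid synthesis genes tested, Acly, which supplies cytosolic acetyl-CoA (-0.95 ± 0.16, FDR = 0.00349), and Fads1, a fatty acid desaturase (-0.76 ± 0.16, FDR = 0.00695), were lower and 0 higher. Of 7 genes of LXR and sterol efflux, 0 were called by edgeR and 1 had an unadjusted p below 0.05. Mttp (-1.62 ± 0.31, FDR = 0.00497) and Apob (-1.37 ± 0.41, FDR = 0.0263), genes of lipoprotein assembly in enterocytes, were lower, and the other 4 of the 6 absorption genes tested were not called.

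The same libraries differed in markers of cell make-up. Of 12 pan-epithelial genes, 6 were higher in the WT ileal libraries, and 1, Cdh1, was lower. Their summed level was 3498 to 9239 CPM in the ileum and 2042 to 5670 in the jejunum, overlapping. In the IEC fraction the same genes summed to 8646 to 14249 CPM. Member levels in the γδ IEL libraries may therefore include epithelial RNA. Of 10 enterocyte genes, 6 were lower in the ileum (summed 210.0 to 633 against 390.0 to 1283 CPM). Of 8 γδ IEL genes tested, Itgae (-0.89 ± 0.20, FDR = 0.00930) and Cd3e (-0.60 ± 0.20, FDR = 0.0432) were lower, and the summed level ran from 34096 to 50335 CPM in the ileum and 36947 to 52104 in the jejunum. Myeloid genes summed to at most 22.4 CPM and smooth muscle genes to at most 0.467 CPM in these 8 libraries, and of 5 proliferation genes 2 were higher in the ileum. With the mean pan-epithelial level as a covariate, 3 of the 8 genes were called, Hmgcs1, Sqle, and Insig1, with a median log2 fold change of -0.51. The share of all genes called in that fit is not given here. Beyond that covariate, the part of cell make-up in the difference was not tested.

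Against the duodenum, the WT jejunum and ileum lay on either side. In the comparison of jejunum with duodenum, 7 of the 8 genes had higher means in the jejunum, but edgeR and DESeq2 called 0, while 5 had an unadjusted p below 0.05 in edgeR. Over all genes, 23.3% were called in either direction and 46.6% had such a p. Hmgcs1 was at 203, 263, 255, and 208 CPM in the duodenum, with no overlap with the jejunum (0.49 ± 0.14, FDR = 0.0219), and Sqle was at 112, 131, 162, and 116 (0.42 ± 0.13, FDR = 0.0315). Both had an FDR below 0.05 with a fold change under 1.5. Fdft1 went the other way (-0.16 ± 0.11, FDR = 0.260).

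From the duodenum to the ileum, all 8 WT means were lower, with log2 fold changes of -0.56 to -0.25, and edgeR and DESeq2 called 0 of them against 2.16% of all genes. The unadjusted p from edgeR was below 0.05 for 4 of the 8, as it was for 10.3% of all genes. Fdft1 was at 186, 181, 201, and 200.1 CPM in the duodenum and all 4 lay above the ileal libraries (-0.54 ± 0.16, FDR = 0.145). Without ileal WT replicate 4, the ileal library with the highest Hmgcs1, 1 of the 8 genes was called, Hmgcs1 itself (-0.75, FDR = 0.0471). The 2.16% belongs to the fit with every library, and the share of all genes without that replicate is not given here. By mean level the order of the WT segments was jejunum, duodenum, ileum for all genes but Fdft1, for which it was duodenum, jejunum, ileum. These 3 comparisons share libraries. By the study's methods, the small intestine of a mouse was divided into segments, so that libraries of different segments may come from the same mice, which the labels do not tie together. Comparisons between segments and the interactions treat libraries as independent.

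In Btnl2-KO mice the same segments were not called apart for any of the 8 genes. Comparing ileum with jejunum, a contrast added after the WT values were seen, all 8 means were lower in the ileum, with a median log2 fold change of -0.48, and edgeR and DESeq2 called 0 of 8 and edgeR 0% of all genes. Before adjustment 2 had p below 0.05 in edgeR, beside 1.21% of all genes. Idi1 was at 199, 209, 279, and 250.1 CPM in the jejunum and 142, 118, and 197 in the ileum, without overlap (-0.65 ± 0.24, FDR = 1). Neither those of Insig1 nor of Cyp51 overlapped, the former at 123, 122, 89.4, and 94.2 against 81.0, 58.3, and 84.6 CPM (-0.54 ± 0.21, FDR = 1), while Hmgcs1 was at 262, 308, 205, and 255 against 210.5, 169.8, and 233 (-0.35 ± 0.21, FDR = 1) and overlapped. How many of all genes had groups without overlap was not counted. Without jejunal replicate 3, which carried the ileal marker Fabp6, 0 members were called as well and their median was -0.48. Against the duodenum, the members' median log2 fold change of the ileum was -0.22, with 0 called by edgeR or DESeq2 (0.505% of all genes by edgeR) and 1, Idi1, at an unadjusted p below 0.05 (9.74%).

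The difference between the genotypes in that step was tested as an interaction over all 22 γδ IEL libraries, also added after the values were seen. It called 0 of the 8 genes by edgeR and DESeq2 (0% of all genes by edgeR), with 1, Hmgcs1, at an unadjusted p below 0.05 (0.72 ± 0.27, FDR = 0.306), beside 14.4% of all genes. The interaction for ileum against duodenum also called 0 by both tools (0%), with 0 at an unadjusted p below 0.05 and log2 values of -0.17 to 0.31. The fitted step from jejunum to ileum was larger in WT mice for 6 of the genes and larger in Btnl2-KO mice for Idi1 and Fdft1, with interaction values of -0.20 to 0.72 on the log2 scale, and was not shown to differ between the genotypes.

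Within a segment of γδ IELs, edgeR and DESeq2 called 0 of the 8 genes between Btnl2-KO and WT mice, with 0 at p below 0.05 before adjustment in edgeR. All groups overlapped. Log2 fold changes of Btnl2-KO over WT ran from 0.017 to 0.16 in the duodenum, -0.32 to 0.14 in the jejunum, and -0.071 to 0.40 in the ileum. Over all genes edgeR called 0.00789%, 0.00794%, and 0% in duodenum, jejunum, and ileum. The tools differed in the ileum, where DESeq2 called 219 genes lower and 2 higher in Btnl2-KO mice of 12604 tested, and edgeR gave 1108 an unadjusted p below 0.05. Hmgcs1 had the lowest p in the jejunum (-0.32 ± 0.15, unadjusted p = 0.0627 and FDR = 0.583 by edgeR) and in the ileum (0.40 ± 0.23, 0.121 and 0.626), with opposite signs. In the ileum, Btnl2-KO replicate 2 had the lowest level of its group for all 8 genes, and without it the median log2 fold change was 0.43 with 2 genes at an unadjusted p below 0.05 and 0 called. The 1108 genes with such a p belong to the fit with every library, and the number without replicate 2 is not given here. The pan-epithelial genes summed to 1033 to 3646 CPM in the Btnl2-KO ileal libraries and 3498 to 9239 in WT ones, with a median log2 fold change of -1.40, and 0 of 12 were called by edgeR with 8 at an unadjusted p below 0.05. With their mean level as a covariate, 0 members were called and the members' median was 0.46 instead of 0.30.

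**Figure D2:**
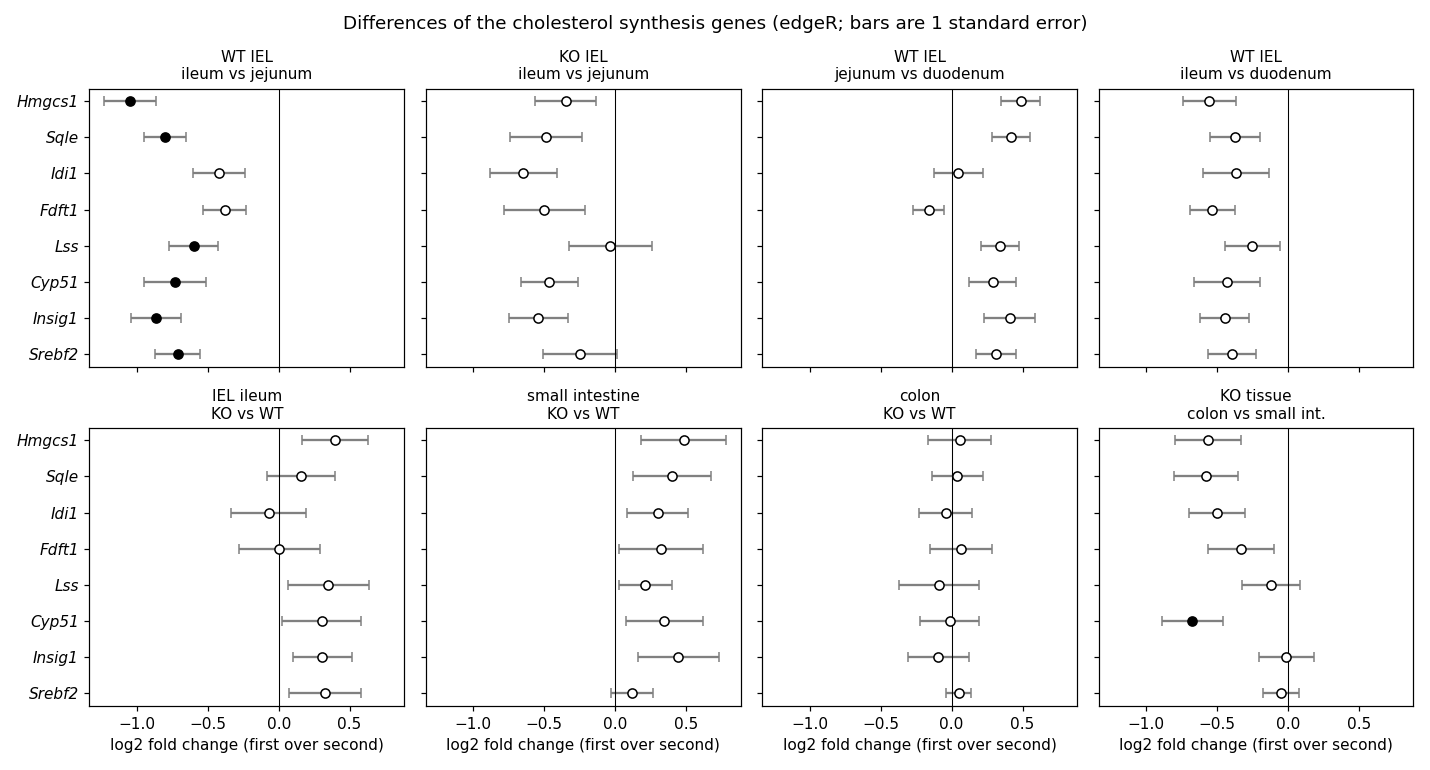
Log2 fold changes of the 8 genes (horizontal axis, first group over second) with 1 standard error in 8 comparisons, from edgeR; filled points passed both thresholds and open points did not. The 6 filled points of WT γδ IELs, ileum against jejunum, lie between -1.05 and -0.60, and the only other filled point is Cyp51 in Btnl2-KO colon against small intestine.

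In small intestine tissue, each of the 8 genes had a higher mean in Btnl2-KO than in WT mice, and edgeR and DESeq2 called 0, with 0 at an unadjusted p below 0.05. Of all genes edgeR called 0.0202%, while DESeq2 called 163 higher and 14 lower of 14866. Hmgcs1 ran from 228 to 879.7 (median 693) CPM in Btnl2-KO and 184 to 614 (median 542) in WT mice (0.48 ± 0.30, FDR = 0.337). Insig1 ran from 67.8 to 171 (median 153) against 37.3 to 176 (median 110.1) (0.44 ± 0.29, FDR = 0.350). Most Btnl2-KO libraries lay above the WT median for these genes, but replicate 1 lay far below. Sqle ran from 61.4 to 256 (median 219) against 79.4 to 197 (median 174) CPM (0.40 ± 0.28, FDR = 0.381), and Srebf2, the least different, from 138 to 272 (median 251) against 155 to 256 (median 233) (0.12 ± 0.15, FDR = 0.636).

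Btnl2-KO replicate 1 and WT replicate 5 had Hmgcs1 at 228 and 184 CPM, and these libraries with high Gata4 were the lowest of their groups for all 8 genes. Without both, a choice made after the values were seen, the median log2 fold change was 0.37 instead of 0.34, and 5 of the 8 genes had an unadjusted p below 0.05, with 0 called and a lowest FDR of 0.261. Without Btnl2-KO replicate 1 alone, 7 genes had such a p, with a median of 0.50 and a lowest FDR of 0.195. With every library kept, 3415 of all 14866 genes had such a p in edgeR, and 0 of the members. How many of all genes had one without these libraries is not given here. Enterocyte genes also had higher means in Btnl2-KO tissue (median log2 fold change 0.98, 0 of 10 called), their sum running from 11547 to 31223 CPM against 2096 to 13230 in WT, and B cell genes had lower ones (median -1.11, 0 of 4 tested called). Their part in the members' differences was not tested.

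**Figure D3:**
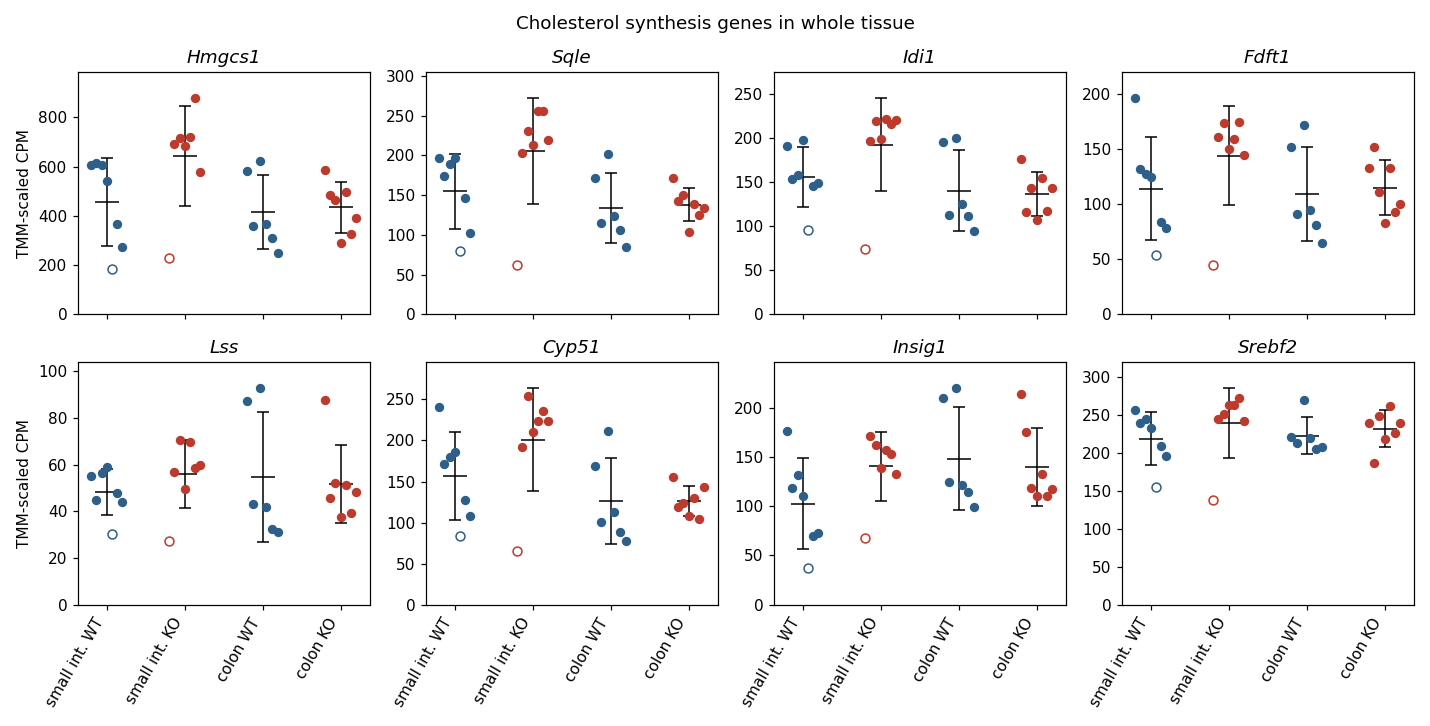
TMM-scaled CPM (linear axes from 0) of the 8 genes in every whole tissue library, WT in blue and Btnl2-KO in red, with the group mean and 1 SD; open circles are the small intestine libraries with Gata4 above 50 CPM. The open circles are the lowest point of their group in each panel, and 1 Btnl2-KO and a pair of WT colon libraries stand above the others for Lss.

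In colon tissue the genotypes were close for all 8 genes, with log2 fold changes of -0.093 to 0.065, 0 called by edgeR or DESeq2 (0.0269% of all genes by edgeR), and 0 at an unadjusted p below 0.05. Hmgcs1 ran from 288 to 587 (median 466) CPM in Btnl2-KO and 249 to 623 (median 364) in WT mice. Colon libraries of both genotypes differed among themselves more than the genotypes did. Lss was at 87.7, 87.1, and 92.7 CPM in Btnl2-KO replicate 1 and WT replicates 1 and 3, and at 31.1 to 52.2 in the other 10. Whether the genotype difference depended on the tissue was tested over all 27 libraries, and 0 members were called by either tool (0.0193% of all genes by edgeR), with 0 at an unadjusted p below 0.05 and log2 values of -0.53 to -0.057.

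Colon and small intestine differed in many genes, and the members called are given beside the share of all genes. In WT mice 27.6% of all genes were called and 0 of the 8 members by edgeR or DESeq2, with 0 at an unadjusted p below 0.05 and log2 fold changes of colon over small intestine from -0.33 (Cyp51) to 0.51 (Insig1). In Btnl2-KO mice 1 member was lower in the colon, Cyp51, against 15.7% of all genes. It ran from 104 to 156 (median 124) CPM in the colon and 65.7 to 254 (median 224) in the small intestine, overlapping through small intestine replicate 1 (-0.67 ± 0.21, FDR = 0.0154). Sqle ran from 104 to 172 (median 139) against 61.4 to 256 (median 219) CPM (-0.58 ± 0.23, FDR = 0.0429) and fell just under the fold minimum. Insig1 was at nearly the same mean in both tissues (139.7 ± 39.8 CPM (SD, n = 7) and 140.4 ± 34.6 CPM (SD, n = 7)), and its log2 fold change was -0.011 ± 0.20. The count depended on single libraries, since 4 members, Hmgcs1, Sqle, Idi1, and Cyp51, were called without small intestine replicate 1, and 3 of them, all but Idi1, without colon replicate 1 or colon replicate 2. The 15.7% belongs to the fit with every library, and the share of all genes called without these libraries is not given here.

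Among the other genes of the pathway, Dhcr7 was higher in the colon in both genotypes (0.81 ± 0.085, FDR = 2.79e-06 in WT and 0.89 ± 0.10, FDR = 1.89e-06 in Btnl2-KO). In WT mice 1 of 15 further enzymes was higher and 2 lower, and in Btnl2-KO mice 1 was higher and 5 lower. Of 6 genes of cholesterol absorption and esterification, 4 were lower and 2 higher in WT colon, and of 7 genes of LXR and sterol efflux 3 were lower and 1 higher. Npc1l1, the transporter that absorbs cholesterol from the gut lumen, averaged 0.402 CPM in WT colon and 456 in small intestine (-10.16 ± 0.58, FDR = 6.15e-09), and Abcg8, a subunit of the pump that returns sterols to the lumen, 3.90 and 98.1 (-4.66 ± 0.38, FDR = 2.33e-07). Acly was higher in the colon (1.42 ± 0.15, FDR = 2.11e-06). Enterocyte markers were lower in the colon in 9 of 9 genes tested, and their part in these differences was not tested.

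In the IEC fraction, 0 of the 8 genes were called between genotypes in any segment by edgeR or DESeq2, with 0 at p below 0.05 before adjustment in edgeR (0%, 0%, and 0.00774% of all genes called in duodenum, jejunum, and ileum). Log2 fold changes of Btnl2-KO over WT ran from 0.014 to 0.38 in the duodenum, -0.27 to 0.48 in the jejunum, and -0.43 to 0.25 in the ileum. Idi1 in the jejunum was at 144, 189, and 151 CPM in Btnl2-KO and 159.6, 93.2, and 93.1 in WT mice (0.48 ± 0.24, FDR = 0.5684), overlapping in WT replicate 1. Fdft1 in the ileum was at 47.4, 75.7, and 60.5 against 86.4 and 78.8 CPM, the 1 member whose genotypes did not overlap in a segment (-0.43 ± 0.21, FDR = 0.900). The lowest of these values, 47.4 CPM, was that of Btnl2-KO replicate 1, which went against its label. Groups this small separate easily, and how many of all genes had genotypes without overlap was not counted. The libraries that went against their labels were duodenal Btnl2-KO replicate 1, jejunal Btnl2-KO replicate 2, and ileal Btnl2-KO replicate 1. Without them, the median log2 fold changes in these segments were -0.20, -0.13, and -0.083 instead of 0.14, -0.11, and -0.16. In the jejunum and ileum 0 members were called. The duodenal fit kept only 1 Btnl2-KO library, so its median alone is given.

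Along WT segments of the IEC fraction, 0 members were called by edgeR or DESeq2, and 0 between jejunum and duodenum and 0 between ileum and jejunum had an unadjusted p below 0.05 in edgeR. Sqle was at 95.0, 100.3, and 83.3 CPM in the duodenum, 129.9, 122, and 79.7 in the jejunum, and 159 and 127 in the ileum. The ileal libraries lay above the duodenal ones, as for Hmgcs1, Lss, and Srebf2. Groups of 2 and 3 libraries separate easily, and how many of all genes did so was not counted. Sqle was the only member with an unadjusted p below 0.05 between ileum and duodenum (0.63 ± 0.21, FDR = 0.191 by edgeR), beside 16.6% of all genes. Hmgcs1 was at 163, 73.1, and 165, 232, 149.8, and 158, and 194 and 233 CPM in the same order, with duodenal replicate 2 lowest. That library had Mki67, a proliferation marker, at 40.0 CPM against 508 and 615 in the others, and without it 1 member was called, Sqle (0.70, FDR = 0.0339). The share of all genes called without that library is not given here, and the shares that follow are from fits with every library. Over all genes, 4.42% were called between ileum and duodenum, 0.32% between jejunum and duodenum, and 1.13% between ileum and jejunum, where members' log2 fold changes ran from -0.013 to 0.40. In the last of these, 7 of 8 means were higher in the ileum, while in γδ IELs all 8 were lower, a difference between separate experiments that was not tested.

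**Figure D4:**
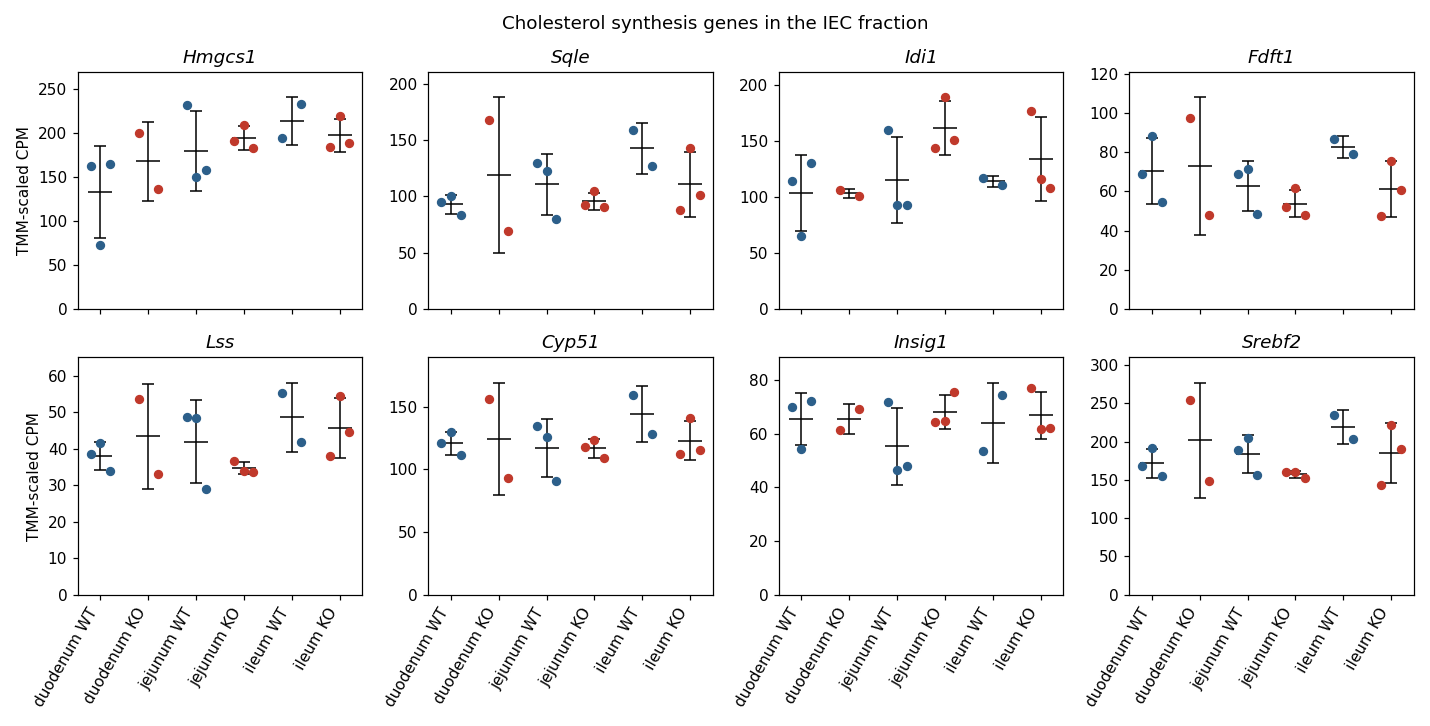
TMM-scaled CPM (linear axes from 0) of the 8 genes in every IEC library, by segment and genotype, WT in blue and Btnl2-KO in red, with the group mean and 1 SD. Within a segment, the genotypes overlap for all 8 genes but Fdft1 in the ileum, and the lowest Hmgcs1 and Idi1 points are those of duodenal WT replicate 2. Overlap was not counted over all genes.

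With each group's mean removed, Pearson's r over log2(CPM + 1) of the 28 pairs of members had a median of 0.883 over 27 tissue libraries, 0.634 over 22 γδ IEL libraries, and 0.265 over 16 IEC libraries. Libraries share their depth, cell make-up, and normalization, so these values are given as a description. Sqle and Cyp51 were the closest pair in tissue (0.964) and in IECs (0.977), and Lss and Srebf2 in γδ IELs (0.918). In IECs the lowest pair was Insig1 with Srebf2 (-0.460).

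Among 11382 other genes ranked by the lowest of their 3 correlations with the mean of the members, 1 for each table and without removing group means, those with the highest values included Aacs, a cytosolic acetoacetyl-CoA synthetase, with r in tissue, IECs, and γδ IELs in that order (0.750, 0.877, and 0.824), and the sterol enzymes Msmo1 (0.959, 0.659, and 0.902) and Hsd17b7 (0.787, 0.601, and 0.838). Below these came Osbpl9, Eif2ak3, Slc25a25, Arhgef3, and Tmco3, with a lowest r of 0.573 to 0.512. The median r over all ranked genes was -0.00955 in tissue, 0.00327 in IECs, and 0.0432 in γδ IELs.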

How the data were processed

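Bulk RNA-sequencing of 65 libraries was used, and the 6 single-cell libraries were not used here. The authors mapped reads to a mouse genome, GRCm38 in the submitters' processing notes, and deposited RSEM expected counts per gene, neither normalized nor rounded. These estimated counts were rounded to whole numbers. Values that were not whole made up 5.00% of the γδ IEL, 14.9% of the IEC, and 17.2% of the tissue counts. From the table of γδ IELs, 1 column matching none of the samples was dropped. Of 24475 identifiers 100 matched no symbol and stayed in library sizes and tests. Groups came from the sample labels. Nothing in the labels says that libraries of a group are separate animals, so that p-values measure the spread between libraries. Every pair of libraries of a group differed by more than sampling noise (lowest chi-square divided by its degrees of freedom 5.28).

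A gene was tested if 10 or more counts were found in a number of libraries equal to the smaller group, by the quasi-likelihood test of edgeR 4.0.16 with TMM scaling, on the 2 groups compared, or on all libraries of a table for interactions, with Benjamini-Hochberg adjustment over all genes. Standard errors were derived from the F statistic of each gene. Alternatives were DESeq2 1.42.0, RLE size factors, no low count filter, all libraries in one fit, no fold minimum, each library left out, and a pan-epithelial covariate (log2 CPM, prior count 2) for γδ IELs. Scripts were tested on simulated data. The members, gene lists, and comparisons were chosen with earlier results of these data known. The comparison of ileal with jejunal Btnl2-KO γδ IELs, its interaction with genotype, and the exclusion of libraries with high Gata4 were added after the values were seen. Members were named everywhere, and of the other lists up to 4 called genes per comparison with the largest fold change. Some genes of these lists are not reported here. Sequences are from RefSeq.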

Additional observations from a re-analysis of the deposited data

Results flagged for a closer look

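Within groups of 4 to 10 libraries, 9 of 64 combinations of member and group held 1 library far from the rest by Dixon's test at the 95% level. In independent tests, chance alone gives this for about 1 in 20. The members rose and fell together between tissue libraries and 6 of the 9 flags fell on 1 library. The count is therefore not set against that rate. Small intestine Btnl2-KO replicate 1, 1 of the libraries with high Gata4, was far below the other 6 for 6 genes, at 61.4 CPM for Sqle (next 203), 74.6 CPM for Idi1 (next 197), 44.7 CPM for Fdft1 (next 144), 65.7 CPM for Cyp51 (next 191), 67.8 CPM for Insig1 (next 133), 138 CPM for Srebf2 (next 242). In the colon, Btnl2-KO replicate 1 was high for Lss, at 87.7 CPM (next 52.2), and WT replicate 3 for Srebf2, at 271 CPM (next 221). In WT jejunal γδ IELs, replicate 1 was high for Insig1, at 151 CPM (next 103), and Insig1 was called between ileum and jejunum without it as well.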

How the results depend on the processing

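Of 347 counts of called members and mean levels recomputed under an alternative, 337 stayed within 1.5 times the reported count or within 1 SD of the level. Most comparisons called 0 members in the reported fit, and a count that stayed at 0 was taken as unchanged. The share therefore says little about the members that were called. The exceptions were few, and how many of all genes were called under those alternatives is not given here. Between Btnl2-KO colon and small intestine, 1 member was called, 2 by DESeq2, 2 with RLE size factors, and 3 with no fold minimum, and 1 to 4 with each library left out. Between WT γδ IELs of ileum and jejunum, 6 were called, 3 with the pan-epithelial covariate, and 4 to 7 with each library left out. Between WT jejunum and duodenum 2 were called with no fold minimum. With each library left out, 0 to 1 were called between WT ileum and duodenum in γδ IELs and in IECs. Of 2584 log2 fold changes of members under alternatives, 131 changed sign, in none of which either value was called. Counts over all genes differed by more than 1.5 times between tools in several comparisons. Between Btnl2-KO and WT mice they were 0 higher and 0 lower by edgeR against 2 and 219 by DESeq2 in ileal γδ IELs, 2 higher and 1 lower by edgeR against 163 and 14 by DESeq2 in small intestine tissue, and 2 higher and 2 lower by edgeR against 4 and 6 by DESeq2 in colon. Between ileum and duodenum they were 144 higher and 127 lower by edgeR against 291 and 211 by DESeq2 in WT γδ IELs, 16 higher and 47 lower by edgeR against 89 and 379 by DESeq2 in Btnl2-KO γδ IELs, and 355 higher and 210 lower by edgeR against 594 and 448 by DESeq2 in WT IECs. In WT IECs they were 21 higher and 19 lower by edgeR against 182 and 147 by DESeq2 for jejunum over duodenum and 99 higher and 46 lower by edgeR against 207 and 136 by DESeq2 for ileum over jejunum. The causes were not tested. Leaving 1 library in a group assumes that it varies like the other group. No paired analysis was possible because the labels give no replicate numbers that groups share, also where segments may come from the same mice. Groups of 2 to 4 libraries limit what could be called in IECs and γδ IELs.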
